A study of Mus musculus with 12 samples.

Results

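The question put to these data was how the effect of the N40K transgene on hippocampal messenger RNA at 12 months of age differed from its effect at 3 months. N40K is a truncated form of U1-70K, the protein that Snrnp70 encodes. The N40K mice came from 1 transgenic line (Tg396) on the C57BL/6J strain and expressed the protein in neurons from a modified CaMKIIa promoter. The other groups were non-transgenic wild-type mice of the same strain. Wild type and N40K were each profiled at 3 and at 12 months with 3 libraries a group. All 12 libraries of the series entered 1 fit, since the difference between the ages needs every group. The labels do not say that each library is a separate animal, so p-values measure the spread between these libraries, which may be technical in part.

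U1-70K belongs to the U1 snRNP, a small nuclear particle of RNA and protein that binds the start of introns and marks them for splicing. The hippocampus holds pyramidal neurons, dentate granule neurons and interneurons, beside glia and blood vessels, and all of these contribute to RNA from whole tissue. In such tissue a lower level can come from fewer cells of a type or from less RNA per cell, and the 2 cannot be told apart.

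Levels are the FPKM values that the authors deposited, read fragments scaled to transcript length in kilobases and to library depth. Effects are differences of means of log2(FPKM + 1), which understate the change of genes with low values, and each is given with its standard error (SE). The genotype effect is N40K minus wild type at 1 age, and "the difference" is the effect at 12 months minus the effect at 3 months. A positive difference means that N40K stood higher against wild type at 12 months than at 3 months. The test was limma, a linear model with a spread shared between genes, over 13945 of 23352 gene entries that reached 1 FPKM in at least 3 of the 12 libraries. A gene was called at a Benjamini-Hochberg adjusted p under 0.05, and adjusted p-values below come from this limma fit.

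Before the results, some libraries stood apart. Xist, the RNA of the inactive X chromosome in females, measured 0.0622, 14.6 and 13.5 FPKM in 3-month wild type and 0.112, 0.0517 and 17.3 FPKM in 3-month N40K, and under 0.1 FPKM in all 12-month libraries. Libraries with Xist under 1 FPKM are called the low-Xist libraries below. Ttr, a transcript of choroid plexus, ran from 25.2 to 5813 FPKM over the libraries, and its range overlapped between all 4 groups. Summed markers of pyramidal neurons (20 genes, 985 to 1210 FPKM) and of dentate granule neurons (18 genes, 214 to 286 FPKM) were present in every library. Estimated depth ran from 39.9 to 97.1 M reads. The library names form 2 numbering runs, 1 for each age, so an effect of handling and an effect of age cannot be told apart in the levels. The same limit holds for the difference. The genotype effect of each age comes from 1 run, so one that varies by run cannot be told apart from one that varies by age.

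The genotype effect differed between the ages for 9 genes. It was higher at 12 months for Gbp3, LOC547349, the joined entry H2-D1;H2-L, Mir23b and Tfrc, and lower at 12 months for 9530052E02Rik, Jun, Ramp2 and Klhl26. These are 0.0645% of the genes tested, 0.0359% positive and 0.0287% negative. The sizes of the 9 differences ran from 0.40 to 0.89 on the log2 scale, while the median size over all genes was 0.10. For comparison, 11.4% of the genes were called for genotype at 3 months and 18.9% at 12 months. At an unadjusted p under 0.05 the difference held 1997 genes (14.3%), 759 positive (5.44%) and 1238 negative (8.88%). At an adjusted p under 0.10 it held 34 (0.244%), 11 positive (0.0789%) and 23 negative (0.165%). By sign alone, 46.9% of all genes were positive and 53.1% negative. Counts of list members below are to be read beside these shares.

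The count of 9 rested on single libraries. It became 0 without replicate 1 or 2 of 3-month wild type, without replicate 3 of 3-month N40K, without replicate 2 of 12-month wild type, and without replicate 2 or 3 of 12-month N40K. It was 1 without replicate 3 of 3-month wild type, 3 without replicate 2 of 3-month N40K, 20 without replicate 3 of 12-month wild type and 162 (19 positive, 143 negative) without replicate 1 of 3-month N40K. With Xist as a covariate no gene was called, with a smallest adjusted p of 0.0692 and 1832 genes at an unadjusted p under 0.05. The direction of each of the 9 genes held under every alternative run, 25 to 27 for each gene. So did an unadjusted p under 0.05 in the limma fits with more than 1 library in each group. These alternatives reuse the libraries by which the 9 genes were picked, so this is no separate support.

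**Figure D1:**
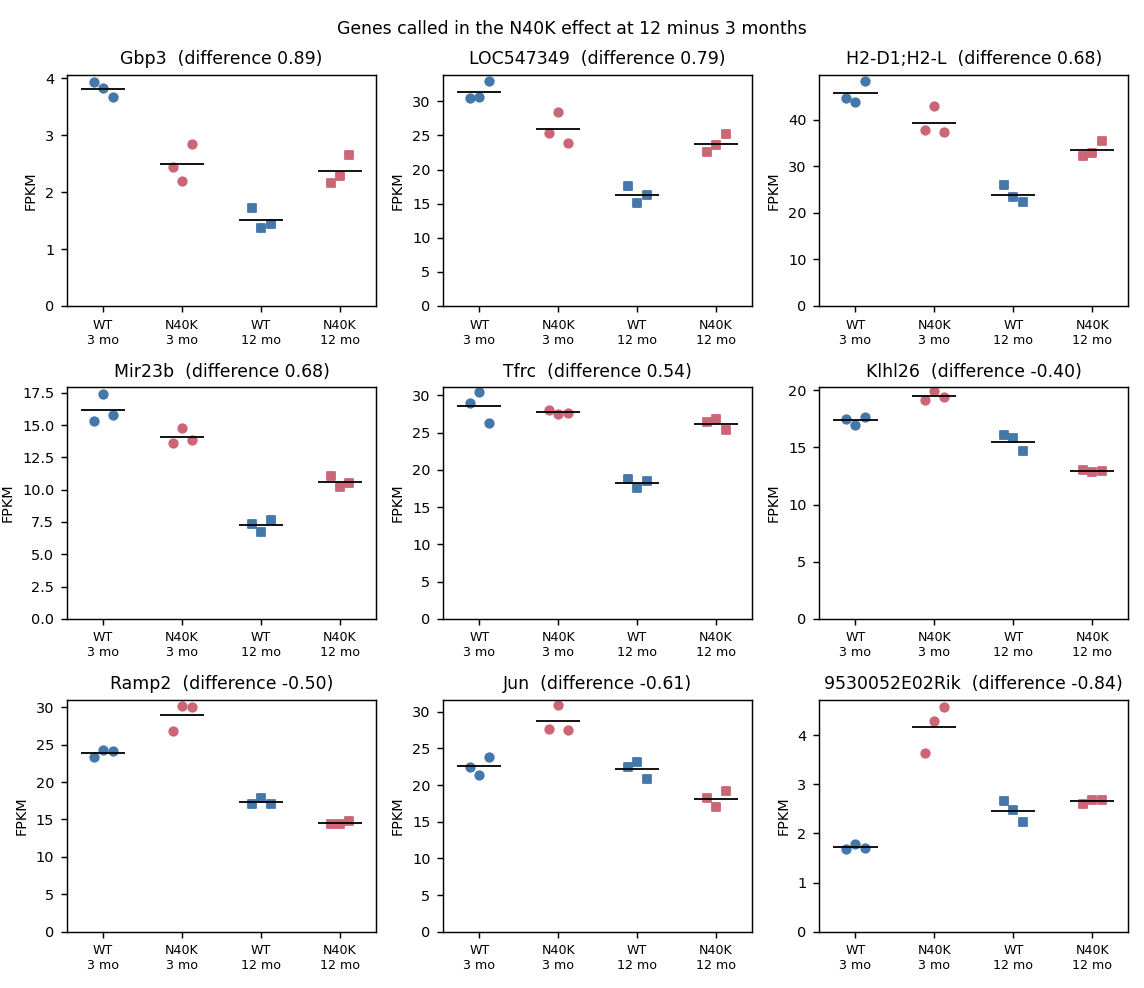
FPKM of the 9 genes called in the difference, with 1 point for each library, circles at 3 months, squares at 12 months, blue for wild type (WT), red for N40K and bars at group means; each y axis starts at 0. In the 5 genes with a positive difference the N40K libraries lie above wild type at 12 months, and in Ramp2, Jun and Klhl26 they lie above wild type at 3 months and below it at 12 months.

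Antigen presentation and interferon genes made up 3 of the 5 positive calls. Interferons are signals of antiviral defence; they bind receptors on many cell types and switch on genes through STAT and IRF transcription factors, among them guanylate-binding proteins and major histocompatibility complex (MHC) class I genes. MHC class I molecules carry peptides to the cell surface and in the brain are made by vessels, microglia and some neurons.

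Gbp3, which encodes a guanylate-binding GTPase of cell-autonomous defence, measured 3.94, 3.84 and 3.68 FPKM in 3-month wild type, 2.44, 2.20 and 2.85 in 3-month N40K, 1.73, 1.37 and 1.45 in 12-month wild type and 2.15, 2.29 and 2.66 in 12-month N40K. The N40K libraries lay below wild type at 3 months and above it at 12 months, without overlap at either age. The genotype effect was -0.47 ± 0.084 at 3 months (adjusted p = 0.00550) and 0.42 ± 0.084 at 12 months (adjusted p = 0.00658). The difference was 0.89 ± 0.12 (95% interval 0.63 to 1.15, adjusted p = 0.0246), the largest of the 9. Between the ages the level fell by 0.94 log2 units in wild type, and N40K had an age effect of -0.053. Of 10 guanylate-binding genes in the table, a group put together around Gbp3 after its values were seen, 6 passed the filter on low values. All 6, Gbp3 among them, had a positive difference, against 46.9% of all genes. The members that did not pass the filter were not tested, so this count is a description only. Of the 6, Gbp9 had a difference of 0.66 ± 0.12 (adjusted p = 0.0889) and Gbp7 of 0.41 ± 0.11 (adjusted p = 0.155). Exons of Gbp9 overlap Gbp4 and Gbp8, so its reads may be shared.

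LOC547349, an MHC class I gene for which RefSeq gives H2-K1 as a synonym, measured 30.5, 30.7 and 33.0 FPKM in 3-month wild type, 25.4, 28.4 and 24.0 in 3-month N40K, 17.6, 15.1 and 16.2 in 12-month wild type and 22.6, 23.6 and 25.2 in 12-month N40K. All 3-month N40K libraries lay below wild type and all 12-month N40K libraries above it. The effect was -0.27 ± 0.071 at 3 months and 0.52 ± 0.071 at 12 months, with a difference of 0.79 ± 0.10 (95% interval 0.57 to 1.01, adjusted p = 0.0246). The joined entry H2-D1;H2-L, classical MHC class I genes that the authors did not separate, measured 44.8, 43.8 and 48.5 FPKM in 3-month wild type, 37.8, 43.1 and 37.3 in 3-month N40K, 26.0, 23.3 and 22.4 in 12-month wild type and 32.3, 32.9 and 35.5 in 12-month N40K. Its groups separated in the same way at both ages, although only the 12-month effect passed the test. The effect was -0.21 ± 0.070 at 3 months (adjusted p = 0.0771) and 0.47 ± 0.070 at 12 months (adjusted p = 0.00134), with a difference of 0.68 ± 0.099 (adjusted p = 0.0363). The H2-D1 entry alone had a difference of 0.28 ± 0.15 (adjusted p = 0.429) and H2-K1 of 0.50 ± 0.13 (adjusted p = 0.158). These genes are close copies of each other, so how the reads were split between their entries is uncertain.

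The MHC class I and peptide loading list had 14 of 16 members tested. None was called in the difference (LOC547349 and the joined entry are not members). At an unadjusted p under 0.05, 7 had a positive difference and none a negative one, against 5.44% and 8.88% of all genes. The median difference was 0.29, against -0.012 over all genes, from a median effect of -0.13 at 3 months and 0.23 at 12 months. H2-Q4, a nonclassical class I gene that overlaps Gm11131, measured 4.75, 5.27 and 5.35 FPKM in 3-month wild type, 3.57, 4.42 and 3.92 in 3-month N40K, 2.28, 1.56 and 1.95 in 12-month wild type and 2.92, 3.15 and 3.40 in 12-month N40K. Its 3-month N40K libraries were all below wild type and its 12-month ones all above, with a difference of 0.81 ± 0.13 (adjusted p = 0.0648). H2-T23, which encodes the Qa-1 molecule, had a difference of 0.74 ± 0.21 (adjusted p = 0.182). B2m, the light chain of all class I molecules, had one of 0.31 ± 0.099 (adjusted p = 0.208).

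Interferon response genes showed the largest median difference of the described pathways with more than 10 tested members. Of 48 members 37 passed the filter, and 1 of them, Gbp3, was called. At an unadjusted p under 0.05, 29 had a positive difference and none a negative one, where 5.44% of all genes had a positive one. The median difference was 0.49, from -0.17 at 3 months and 0.34 at 12 months, and 0.45 over all 48 members without the filter. The mean level of the list, in log2 units from its average over the 12 libraries, was 0.097, 0.10 and 0.24 in 3-month wild type, -0.024, -0.021 and -0.090 in 3-month N40K, -0.20, -0.35 and -0.21 in 12-month wild type and -0.082, 0.13 and 0.42 in 12-month N40K. The genotypes did not overlap at either age, and replicate 3 of 12-month N40K was the highest of all 12. Without that library the median difference was 0.36.

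Oasl2, an antiviral oligoadenylate synthetase-like gene, measured 1.88, 1.91 and 1.79 FPKM in 3-month wild type, 1.30, 1.30 and 1.41 in 3-month N40K, 0.990, 0.769 and 1.11 in 12-month wild type and 1.60, 2.52 and 3.01 in 12-month N40K. It was lower in N40K at 3 months and higher at 12 months in every library, with a difference of 1.06 ± 0.18 that missed the threshold (adjusted p = 0.0869). Irf7, the transcription factor that amplifies the interferon response, measured 2.59, 1.96 and 2.72 FPKM in 3-month wild type, 1.85, 1.26 and 1.78 in 3-month N40K, 0.785, 0.619 and 1.06 in 12-month wild type and 1.42, 2.62 and 2.98 in 12-month N40K. Its difference was 1.23 ± 0.25 (adjusted p = 0.114), and replicates 2 and 3 of 12-month N40K lay above replicate 1. Herc6, a ubiquitin ligase gene of the interferon response that overlaps Gm45193, had a difference of 0.56 ± 0.12 (adjusted p = 0.130). Microglia, a source of interferon-induced transcripts, had a median marker difference of 0.029 over 29 markers, 2 positive and 2 negative at an unadjusted p under 0.05. The summed microglial markers ran from 525 to 555 FPKM in 3-month wild type, 508 to 552 in 3-month N40K, 490 to 552 in 12-month wild type and 505 to 517 in 12-month N40K, with no marker at 0, and the genotypes overlapped at both ages.

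Promoters of these genes are shown because 36 of the 37 tested members had a positive difference and some carry the same regulatory letters. The interferon-stimulated response element, to which STAT and IRF factors bind, was searched as its core, GAAA, any 2 bases and GAAA again, on both strands of the 250 bases before the start site. RefSeq promoters (GRCm38.p6) were matched for 30 of the tested interferon members, and 12 of them (40%) held the core. The share was 3.46% of 27025 genes with a promoter, and 2.89% of the 10750 tested ones held the core. It stood in 2 of 13 MHC class I members (15.4%), and also in 4 of 27 immediate early genes (14.8%) and 1 of 9 AP-1 genes (11.1%), lists with negative median differences. Oasl2, Irf7 and Herc6 were not among the 12 interferon members with the core, lacking either a match or a matched promoter. Only promoters with the core are printed. Capitals mark the core, or overlapping cores in Gbp3, and each line reads 5′ to 3′ on the strand of the gene.
Gbp3, chr3:142559984-142560029, plus strand: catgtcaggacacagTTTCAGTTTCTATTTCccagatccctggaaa
Gbp7, chr3:142530268-142530307, plus strand: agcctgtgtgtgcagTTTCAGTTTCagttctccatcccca
Ifit3, chr19:34583358-34583397, plus strand: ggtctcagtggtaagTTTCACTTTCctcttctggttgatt
Igtp, chr11:58199507-58199546, plus strand: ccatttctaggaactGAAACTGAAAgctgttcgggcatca
B2m, chr2:122147533-122147572, plus strand: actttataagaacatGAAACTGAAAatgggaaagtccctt
The cores of Gbp3 lie from 45 to 30 bases before its start site, and those of Gbp7 and Igtp within 53 bases of theirs. Ifit3, whose product binds viral RNA complexes, had a difference of 1.10 ± 0.26 (adjusted p = 0.142), and Igtp, an immunity-related GTPase gene, one of 0.55 ± 0.13 (adjusted p = 0.146). A match is a description of the letters and does not show binding.

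Tfrc was also called in the positive direction, and vessel markers had positive differences beside it. Tfrc encodes transferrin receptor 1, through which neurons and the endothelium of the blood-brain barrier take up iron. It measured 29.0, 30.4 and 26.3 FPKM in 3-month wild type, 28.01, 27.5 and 27.7 in 3-month N40K, 18.7, 17.5 and 18.5 in 12-month wild type and 26.5, 26.8 and 25.3 in 12-month N40K. The genotypes overlapped at 3 months and separated at 12 months, where the wild-type libraries were the lowest of all 12. The effect was -0.040 ± 0.051 at 3 months (adjusted p = 0.688) and 0.50 ± 0.051 at 12 months (adjusted p = 0.000143), a difference of 0.54 ± 0.072 (95% interval 0.38 to 0.70, adjusted p = 0.0246). Between the ages Tfrc fell by 0.62 log2 units in wild type, and N40K had an age effect of -0.079. Of 20 tested iron handling genes, a list chosen after the values were seen, Tfrc was called. At an unadjusted p under 0.05, 3 were positive and 1 was negative, against 5.44% and 8.88% of all genes. Slc11a2, the iron transporter that works with the receptor in endosomes and overlaps Gm5475, had a difference of 0.34 ± 0.082 (adjusted p = 0.142).

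Endothelial and mural markers had 29 of 29 members tested and none called. At an unadjusted p under 0.05, 8 were positive and none negative, against 5.44% and 8.88% of all genes. These markers had a positive sign in 28 (96.6%, against 46.9% of all genes). Their median difference was 0.23, from -0.033 at 3 months and 0.22 at 12 months. The vessel list had mean levels of 0.19, 0.080 and 0.38 in 3-month wild type, 0.22, 0.28 and 0.077 in 3-month N40K, -0.23, -0.43 and -0.27 in 12-month wild type and -0.11, -0.18 and -0.0049 in 12-month N40K. The summed markers ran from 391 to 473 FPKM in 3-month wild type, 400 to 465 in 3-month N40K, 276 to 301 in 12-month wild type and 319 to 356 in 12-month N40K, with no marker at 0. The genotypes overlapped at 3 months, while at 12 months every N40K library lay above every wild-type library. The median was 0.15 without replicate 3 of 3-month wild type and 0.13 in the low-Xist libraries. Slco1a4, a transporter of the blood-brain barrier, measured 18.1, 18.8 and 20.7 FPKM in 3-month wild type, 19.8, 19.7 and 17.4 in 3-month N40K, 9.72, 9.94 and 11.6 in 12-month wild type and 17.7, 15.3 and 16.8 in 12-month N40K, with a difference of 0.64 ± 0.11 (adjusted p = 0.0869). Flt1, a receptor for vascular growth factors, had a difference of 0.36 ± 0.10 (adjusted p = 0.185) and Abcb1a, the drug efflux pump that overlaps Gm42686, one of 0.32 ± 0.099 (adjusted p = 0.203). Endothelial cells also express Tfrc, MHC class I and interferon-induced genes, and the part of the vessel markers in those results was not tested.

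Ramp2 was called in the negative direction, while 28 of the 29 vessel markers had a positive sign. It encodes a partner protein of the calcitonin receptor-like receptor that makes it a receptor for adrenomedullin, and it is abundant in endothelium. Ramp2 measured 23.3, 24.2 and 24.1 FPKM in 3-month wild type, 26.8, 30.1 and 30.03 in 3-month N40K, 17.0, 17.9 and 17.1 in 12-month wild type and 14.4, 14.4 and 14.9 in 12-month N40K. N40K libraries were the highest at 3 months and the lowest at 12 months, without overlap at either age. The effect was 0.27 ± 0.047 at 3 months (adjusted p = 0.00491) and -0.24 ± 0.047 at 12 months (adjusted p = 0.00658), and the difference was -0.50 ± 0.067 (95% interval -0.65 to -0.36, adjusted p = 0.0246). Its receptor Calcrl had a difference of 0.12 ± 0.13 (adjusted p = 0.723), and the related Ramp1 and Ramp3 of -0.23 ± 0.10 and 0.031 ± 0.16 (adjusted p = 0.332 and 0.946). Calcrl and Ramp3 changed sign under some alternatives. The annotated span of Ramp2 overlaps the neighbouring Vps25 on the same strand.

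**Figure D2:**
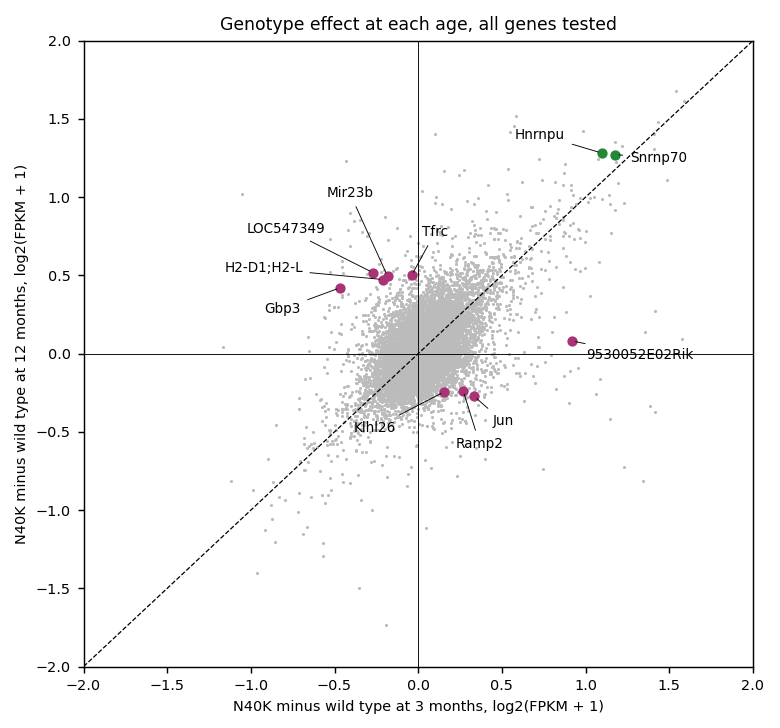
Genotype effect at 12 months (y axis) against the effect at 3 months (x axis), both in log2(FPKM + 1), for the genes tested, with the 9 called genes in purple, Snrnp70 and Hnrnpu in green and the dashed line where both effects are equal; 2 genes lie outside the axes. The called genes lie away from the dashed line, most of them with effects of opposite sign, while Snrnp70 and Hnrnpu lie near it with effects above 1 at both ages.

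Jun was called in the negative direction. It encodes a subunit of AP-1, a transcription factor made of Jun and Fos proteins, which neuronal activity and stress induce within minutes. Jun measured 22.5, 21.4 and 23.8 FPKM in 3-month wild type, 27.7, 30.9 and 27.5 in 3-month N40K, 22.4, 23.1 and 20.8 in 12-month wild type and 18.2, 17.0 and 19.3 in 12-month N40K. Every 3-month N40K library was above every other library, and every 12-month N40K library below every other library. The effect was 0.33 ± 0.064 at 3 months (adjusted p = 0.00706) and -0.27 ± 0.064 at 12 months (adjusted p = 0.0132), a difference of -0.61 ± 0.090 (95% interval -0.81 to -0.41, adjusted p = 0.0407). Wild type had an age effect of -0.026, with overlapping ages, while Jun fell by 0.63 log2 units in N40K. The span of Jun overlaps the antisense gene Junos.

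Activity-regulated immediate early genes as a list had 34 of 35 members tested. Only Jun was called, 10 were negative and none positive at an unadjusted p under 0.05, and 30 had a negative sign. Among all genes 8.88% were negative and 5.44% positive at that p, and 53.1% had a negative sign. The median difference was -0.27, from a median effect of 0.19 at 3 months and -0.11 at 12 months. These genes had mean levels of -0.11, 0.094 and 0.16 in 3-month wild type, 0.17, 0.30 and 0.31 in 3-month N40K, -0.24, -0.012 and -0.030 in 12-month wild type and -0.11, -0.30 and -0.23 in 12-month N40K. The 3-month N40K libraries were the 3 highest, and at 12 months the genotypes overlapped. Egr4, a zinc finger transcription factor gene, measured 3.59, 4.53 and 5.12 FPKM in 3-month wild type, 5.98, 11.6 and 11.9 in 3-month N40K, 3.92, 4.41 and 4.27 in 12-month wild type and 4.11, 3.50 and 4.07 in 12-month N40K. Replicates 2 and 3 of 3-month N40K lay far above replicate 1, and the difference was -1.04 ± 0.28 (adjusted p = 0.160). Egr2 had a difference of -0.81 ± 0.22 (adjusted p = 0.170) and the stress sensor gene Gadd45g of -0.36 ± 0.099 (adjusted p = 0.170). Of 10 tested AP-1 genes, chosen after the values were seen, 6 were negative at an unadjusted p under 0.05, among them Fosb with -0.59 ± 0.16 (adjusted p = 0.170) and Jund with -0.72 ± 0.21 (adjusted p = 0.185). The Jund difference was -0.45 with the GC trend removed. In the 250 bases before the start site, the cyclic AMP response element, TGACG followed by TCA, stood in 2 of 27 immediate early promoters (7.41%). It stood in 1.77% of all genes with a promoter and in 3.02% of the tested ones. The AP-1 site TGANTCA stood in 1 of 27 (3.7%), against 7.82% of all genes with a promoter and 5.23% of the tested ones. Neither element was found in the Jun promoter or in any of 9 promoters of AP-1 genes.

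Chaperones of the endoplasmic reticulum (ER) had a lower median genotype effect at 12 months than at 3 months, though none passed the threshold of the difference. When unfolded proteins build up in the ER, sensors there switch on these chaperone genes through ATF6, XBP1 and ATF4. Of 38 members 36 were tested, none was called, 15 were negative and 2 positive at an unadjusted p under 0.05, where 8.88% of all genes were negative. The median difference was -0.13, from -0.00074 at 3 months and -0.16 at 12 months. Mean levels were -0.12, -0.057 and 0.017 in 3-month wild type, -0.063, -0.065 and -0.040 in 3-month N40K, 0.21, 0.23 and 0.077 in 12-month wild type and -0.11, -0.073 and 0.0017 in 12-month N40K. The 12-month wild-type libraries were the 3 highest, and the other groups overlapped.

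Sdf2l1, an ER cofactor of the chaperone BiP, had the smallest p among the genes that missed the threshold. It measured 5.09, 4.63 and 5.71 FPKM in 3-month wild type, 4.63, 5.88 and 5.56 in 3-month N40K, 12.0, 12.9 and 8.62 in 12-month wild type and 4.22, 4.54 and 4.93 in 12-month N40K. The 12-month wild-type libraries were the highest, and the 3-month groups overlapped. The effect was 0.047 ± 0.13 at 3 months and -1.12 ± 0.13 at 12 months, with a difference of -1.16 ± 0.18 (95% interval -1.56 to -0.77, adjusted p = 0.0580). Manf, which encodes a secreted neurotrophic ER protein and overlaps Rbm15b, measured 11.4, 12.1 and 13.8 FPKM in 3-month wild type, 12.1, 13.1 and 14.3 in 3-month N40K, 23.1, 24.4 and 17.7 in 12-month wild type and 12.0, 12.3 and 13.4 in 12-month N40K, with a difference of -0.81 ± 0.15 (adjusted p = 0.0919). Again the 12-month wild-type libraries were the highest. Creld2, a disulfide isomerase-like gene, had a difference of -0.65 ± 0.13 (adjusted p = 0.112) and Herpud1, a gene of ER-associated degradation, one of -0.46 ± 0.10 (adjusted p = 0.130). Hspa5, which encodes BiP itself, measured 64.7, 71.4 and 89.6 FPKM in 3-month wild type, 73.6, 66.1 and 74.0 in 3-month N40K, 146, 157 and 121 in 12-month wild type and 69.5, 77.9 and 86.6 in 12-month N40K. Its 12-month wild-type libraries lay above the other 9, with a difference of -0.78 ± 0.18 (adjusted p = 0.132). Replicate 3 was the lowest of the 12-month wild-type libraries in Sdf2l1, Manf, Creld2, Herpud1 and Hspa5.

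The ER stress element, to which ATF6 binds with NF-Y, was searched on both strands of the same 250 bases as CCAAT, any 9 bases and CCACG. It stood in 9 of 31 tested ER members with a promoter (29.0%), against 0.13% of all 27025 genes with a promoter and 0.149% of the tested ones. The promoters of Sdf2l1 and Herpud1, among the members with the smallest p, did not hold it. It is printed for 4 members that do, with the element in capitals, read 5′ to 3′ on the strand of the gene, so that Creld2 and Calr carry it on the opposite strand.
Creld2, chr15:88819505-88819553, plus strand: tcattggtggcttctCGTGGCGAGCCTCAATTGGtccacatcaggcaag
Hspa5, chr2:34772010-34772058, plus strand: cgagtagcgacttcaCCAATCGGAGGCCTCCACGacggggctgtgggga
Calr, chr8:84847060-84847108, minus strand: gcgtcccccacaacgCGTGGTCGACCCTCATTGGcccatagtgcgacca
Pdia6, chr12:17266476-17266524, plus strand: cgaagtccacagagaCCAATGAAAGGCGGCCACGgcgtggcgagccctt
Calr, which encodes the calcium-binding chaperone calreticulin, had a difference of -0.40 ± 0.10 (adjusted p = 0.153), and Pdia6, a disulfide isomerase gene, one of -0.58 ± 0.15 (adjusted p = 0.160).

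Heat shock chaperones, which fold proteins in the cytosol and mitochondria and respond to the factor HSF1, had 39 of 39 members tested. None was called, 15 were negative and none positive at an unadjusted p under 0.05, and 36 had a negative sign. For all genes the shares were 8.88% negative and 5.44% positive at that p, and 53.1% with a negative sign. The median difference was -0.16, from -0.0098 at 3 months and -0.19 at 12 months. Dnajb1, an HSP40 co-chaperone, measured 14.5, 16.7 and 17.5 FPKM in 3-month wild type, 19.5, 19.0 and 19.3 in 3-month N40K, 16.9, 16.4 and 15.6 in 12-month wild type and 13.01, 13.5 and 14.3 in 12-month N40K. N40K libraries were above wild type at 3 months and below it at 12 months without overlap, with effects of 0.24 ± 0.063 and -0.24 ± 0.063 and a difference of -0.48 ± 0.089 (adjusted p = 0.0919). Hspa1b and Hspa1a, the inducible HSP70 genes, are close copies whose reads may be split between them (Hspa1a also overlaps Gm20481), and they had differences of -0.95 ± 0.19 and -0.63 ± 0.14 (adjusted p = 0.112 and 0.130). The heat shock element was searched as GAA, any 2 bases, TTC, any 2 bases and GAA, or as TTC, GAA and TTC with the same spacing. It stood in 2 of 32 chaperone promoters (6.25%), against 0.514% of all genes with a promoter and 0.493% of the tested ones. These 2 were Hspe1 and Hspd1, whose matches are the same bases read on opposite strands. So 1 stretch of DNA is counted for both genes. Chordc1, an HSP90 co-chaperone, was called at both ages, with an effect of -0.66 ± 0.062 at 3 months and -1.11 ± 0.062 at 12 months. Its difference of -0.45 ± 0.088 missed the threshold (adjusted p = 0.112).

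**Figure D3:**
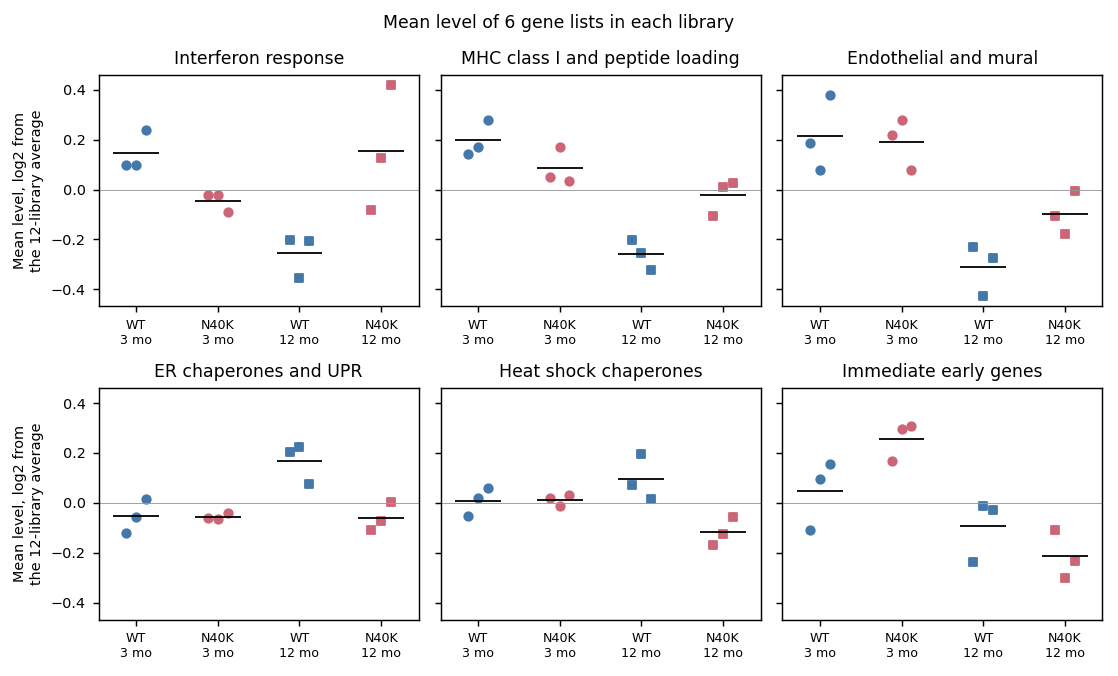
Mean level of 6 gene lists in each library, in log2 units from the average of the 12 libraries, with circles at 3 months, squares at 12 months, blue for wild type (WT), red for N40K and bars at group means (ER, endoplasmic reticulum; UPR, unfolded protein response). The interferon and MHC class I panels have N40K above wild type at 12 months, and the ER chaperone panel has 12-month wild type above the other groups.

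The remaining called genes are in none of these lists. The noncoding RNA 9530052E02Rik measured 1.67, 1.79 and 1.71 FPKM in 3-month wild type, 3.63, 4.28 and 4.57 in 3-month N40K, 2.67, 2.48 and 2.23 in 12-month wild type and 2.60, 2.68 and 2.68 in 12-month N40K. The 3-month N40K libraries lay above all others, and at 12 months the genotypes overlapped. The effect was 0.92 ± 0.073 at 3 months (adjusted p = 3.97e-05) and 0.081 ± 0.073 at 12 months (adjusted p = 0.467), a difference of -0.84 ± 0.10 (95% interval -1.06 to -0.61, adjusted p = 0.0246). Its exons overlap those of Irs2, an insulin receptor substrate gene on the opposite strand, and with no strand setting given the reads of both cannot be told apart. Irs2 itself had effects of 0.12 ± 0.073 and -0.37 ± 0.073 and a difference of -0.49 ± 0.10 (adjusted p = 0.127).

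Klhl26, a Kelch-like gene whose family encodes adaptors of ubiquitin ligases, measured 17.5, 17.0 and 17.6 FPKM in 3-month wild type, 19.1, 19.9 and 19.4 in 3-month N40K, 16.1, 15.8 and 14.7 in 12-month wild type and 13.02, 12.9 and 12.9 in 12-month N40K. N40K libraries were above wild type at 3 months and below it at 12 months, without overlap. The effect was 0.16 ± 0.041 at 3 months (adjusted p = 0.0316) and -0.24 ± 0.041 at 12 months (adjusted p = 0.00259), and the difference of -0.40 ± 0.058 (95% interval -0.53 to -0.27, adjusted p = 0.0363) was the smallest of the 9.

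Mir23b was the only microRNA locus called of 211 tested. MicroRNAs are cut from longer transcripts as hairpins and guide silencing complexes to target messengers through their seed, bases 2 to 8. Mature microRNAs carry no poly-A tail, so poly-A selected reads at this 74-base locus come from longer transcripts. RefSeq places the locus at chr13:63300484-63300557 on the plus strand of GRCm38.p6. In the hairpin the capitals mark mmu-miR-23b-5p, and in the mature sequence they mark the seed. The sequences used held no mature product of the other arm of this hairpin, so that arm is left unmarked.
Mir23b hairpin: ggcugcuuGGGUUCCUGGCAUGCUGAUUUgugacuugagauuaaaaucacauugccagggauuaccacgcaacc
mmu-miR-23b-5p: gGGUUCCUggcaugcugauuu
Mir23b measured 15.3, 17.4 and 15.8 FPKM in 3-month wild type, 13.6, 14.8 and 13.9 in 3-month N40K, 7.34, 6.70 and 7.66 in 12-month wild type and 11.1, 10.2 and 10.6 in 12-month N40K. Both ages separated the genotypes, N40K being lower at 3 months and higher at 12 months, although the 3-month effect did not pass the test. The effect was -0.18 ± 0.060 at 3 months (adjusted p = 0.0745) and 0.50 ± 0.060 at 12 months (adjusted p = 0.000443), a difference of 0.68 ± 0.085 (95% interval 0.49 to 0.87, adjusted p = 0.0246).

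The locus lies inside 2010111I01Rik on the same strand and inside Fancc on the opposite strand, so its reads may belong to these genes. The entry of 2010111I01Rik had a difference of 0.068 ± 0.081 (adjusted p = 0.738) and Fancc of 0.17 ± 0.11 (adjusted p = 0.514). The neighbouring loci of the same cluster, Mir27b, Mir24-1 and Mir3074-1, had differences of 0.27 ± 0.20, 0.29 ± 0.19 and 0.33 ± 0.16 (adjusted p = 0.548, 0.505 and 0.380). A mature product of Mir27b and one of Mir24-1 are printed to show that their seeds, in capitals, are other than that of mmu-miR-23b-5p.
mmu-miR-27b-3p: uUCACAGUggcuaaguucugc
mmu-miR-24-3p: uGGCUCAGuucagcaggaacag
Without replicate 2 of 12-month wild type these 3 differences were 0.13, 0.10 and 0.17. Of all 211 microRNA loci 26 were positive and 15 negative at an unadjusted p under 0.05, against 5.44% and 8.88% of all genes. The median difference of these loci was 0.12. It was 0.050 with no filter, 0.047 without replicate 2 of 12-month wild type, the library with the lowest level of the list, and -0.0030 with the transcript length trend removed. Small nucleolar RNA loci (87 of 103 tested), which lie in introns of host genes, had a median of 0.099, 8 positive and 6 negative. That median was 0.026 without replicate 1 of 3-month wild type, 0.032 without replicate 2 of 12-month wild type and -0.013 with the length trend removed. Among them Snora31 had the smallest p, with an effect of 0.10 ± 0.13 at 3 months, 1.00 ± 0.13 at 12 months and a difference of 0.89 ± 0.18 (adjusted p = 0.119).

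Genes affected at both ages in the same direction gave no call of the difference. Snrnp70, whose reads include those of the transgene where they share sequence, measured 179, 161 and 179 FPKM in 3-month wild type, 399, 401 and 377 in 3-month N40K, 138, 96.0 and 133 in 12-month wild type and 305, 320.0 and 259 in 12-month N40K. Its effect was 1.18 ± 0.12 at 3 months and 1.27 ± 0.12 at 12 months, a difference of 0.093 ± 0.17 (95% interval -0.28 to 0.47, adjusted p = 0.843). Replicate 2 of 12-month wild type was the lowest library, and without it the difference was -0.071. Hnrnpu, a gene of nuclear RNA binding, had an effect of 1.10 ± 0.053 at 3 months and 1.28 ± 0.053 at 12 months, with a difference of 0.19 ± 0.074 (95% interval 0.022 to 0.35, adjusted p = 0.289). The Hnrnpu difference was 0.10 with the transcript length trend removed and 0.30 after quantile normalization. In all, 915 genes were called at both ages with the same sign, at a median effect size of 0.32 at 3 months and 0.33 at 12 months. None of them was called in the difference and 82 (8.96%) had an unadjusted p under 0.05, against 14.3% of all genes. Calls of the same sign at both ages favour a small difference, so this share is a description. The test did not show their effects to differ, nor does it show them to be equal.

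Opposite signs at the 2 ages were found for 13 genes called at both, of which 5 were called in the difference (LOC547349, Ramp2, Gbp3, Klhl26 and Jun). The other 8 were Ube2g2, Plcd4, Dnajb1, Far2, Chtf8, Gpr19, Pik3ip1 and Jph4, all with an unadjusted p under 0.05. A gene called with opposite signs must have a large difference, so this count is no separate support. Ube2g2, a ubiquitin-conjugating enzyme of ER-associated degradation that overlaps Gm49325, measured 21.7, 21.8 and 21.95 FPKM in 3-month wild type, 25.1, 24.5 and 26.1 in 3-month N40K, 22.9, 26.7 and 24.1 in 12-month wild type and 20.9, 19.4 and 21.3 in 12-month N40K. The effect was 0.20 ± 0.055 at 3 months and -0.24 ± 0.055 at 12 months, with a difference of -0.45 ± 0.078 (adjusted p = 0.0869). Far2, a fatty acyl-CoA reductase gene that overlaps Ergic2, was the only one of these 8 with a positive difference, 0.37 ± 0.070 (adjusted p = 0.0919). Plcd4, a phospholipase C gene that overlaps Zfp142, had a difference of -0.38 ± 0.068 (adjusted p = 0.0892), Chtf8, a gene of sister chromatid cohesion, -0.30 ± 0.060 (0.114), the orphan receptor gene Gpr19 -0.38 ± 0.077 (0.114), and Pik3ip1, an inhibitor of PI3 kinase, -0.42 ± 0.085 (0.119). Over all genes, 60 (0.43%) had N40K wholly below wild type at 3 months and wholly above it at 12 months, and 120 (0.861%) the opposite.

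Calls at a single age were the most frequent pattern among genes called at either age. Genotype was called at 12 months only for 1704 genes, of which 3 were called in the difference (Tfrc, Mir23b and H2-D1;H2-L) and 705 (41.4%) had an unadjusted p under 0.05. At 3 months only it was called for 668 genes, of which 1 was called in the difference (9530052E02Rik) and 324 (48.5%) had an unadjusted p under 0.05. Among all genes tested 14.3% had such a p. These patterns use the same libraries as the difference, so the shares are a description. Age was called for 41.6% of all genes in wild type and 51.6% in N40K. Read along age, 4 of the 9 genes had an age effect of the same sign called in both genotypes, 1 had opposite signs, 3 were called in wild type only and 1 in N40K only.

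**Figure D4:**
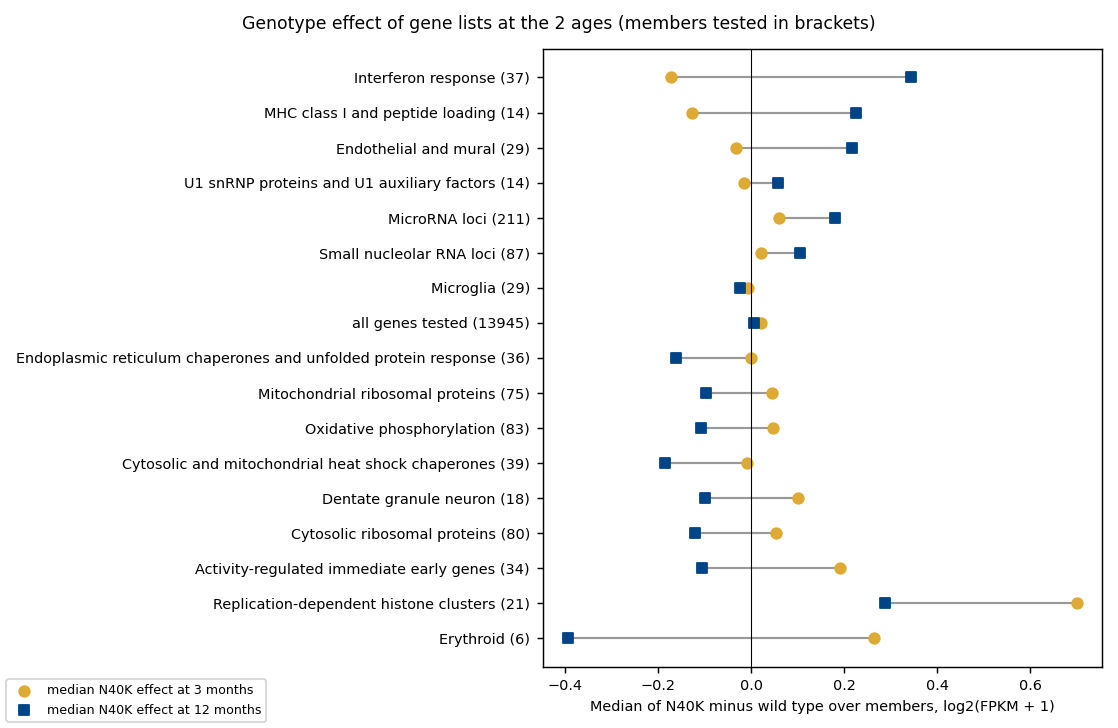
Median genotype effect over the tested members of 16 gene lists and over all genes, at 3 months (yellow circles) and 12 months (blue squares), in log2(FPKM + 1), with the number of members in brackets. Interferon, MHC class I and vessel lists move to the right between the ages, and immediate early, chaperone, ribosomal and histone lists move to the left.

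Replication-dependent histone genes had a positive median effect at both ages and the smaller one at 12 months. Most of their transcripts end without a poly-A tail, and libraries made from poly-A RNA hold only some of them. Of 66 members 21 passed the filter, none was called and 11 were negative at an unadjusted p under 0.05, against 8.88% of all genes. A member can pass the filter through the 3 libraries of 1 group, and this list was highest in 3-month N40K. Entry through that group favours a negative difference, so the count of 11 is a description only. The median effect was 0.70 at 3 months and 0.29 at 12 months, with a median difference of -0.39, and of -0.11 over all 66 without the filter. Hist3h2a, which overlaps Trim17, measured 12.2, 13.7 and 14.5 FPKM in 3-month wild type, 22.6, 23.8 and 21.3 in 3-month N40K, 12.6, 15.4 and 12.2 in 12-month wild type and 15.6, 16.8 and 17.2 in 12-month N40K, with a difference of -0.42 ± 0.12 (adjusted p = 0.184). Hist1h2bc had a difference of -0.58 ± 0.17 (adjusted p = 0.185). The histone level was highest in replicate 2 of 3-month N40K (0.61, against 0.26 and 0.30 in the other 2 libraries), and without it the median difference was -0.24.

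Ribosomal and mitochondrial genes had small negative differences with no call. For comparison, 53.1% of all genes had a negative sign, and 8.88% were negative and 5.44% positive at an unadjusted p under 0.05. All 80 tested cytosolic ribosomal protein genes of 83 had a negative sign, 31 of them at an unadjusted p under 0.05, with a median of -0.18 that was -0.092 after quantile normalization and -0.11 with the transcript length trend removed. Rpl38 had a difference of -0.35 ± 0.097 (adjusted p = 0.170). Oxidative phosphorylation genes (83 of 85 tested) had a median of -0.14, 15 negative and 1 positive at an unadjusted p under 0.05, and -0.077 without replicate 2 of 12-month wild type. Cox8a, a subunit of cytochrome c oxidase, measured 384, 361 and 334 FPKM in 3-month wild type, 419, 668 and 690.4 in 3-month N40K, 515, 540.2 and 486 in 12-month wild type and 449, 451 and 496 in 12-month N40K. Replicates 2 and 3 of 3-month N40K stood far above replicate 1, and the difference was -0.83 ± 0.21 (adjusted p = 0.156). Mitochondrial ribosomal proteins (75 of 75 tested) had a median of -0.14, with 23 negative at an unadjusted p under 0.05, and -0.081 without replicate 2 of 12-month wild type.

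Splicing factors gave no call either. Their counts stand beside 5.44% positive and 8.88% negative over all genes at an unadjusted p under 0.05. U1 snRNP proteins and auxiliary factors (14 of 14 tested) had a median difference of 0.17, 4 positive and 1 negative at an unadjusted p under 0.05. Replicate 2 of 12-month wild type had the lowest level of this list, and without it the median was 0.073, with Luc7l3 at 0.19 and Srsf5 at 0.19. Snrpa, a gene of the U1 particle that overlaps BC024978, had a difference of -0.19 ± 0.059 (adjusted p = 0.207) and Luc7l3, a U1 auxiliary gene, of 0.31 ± 0.12 (adjusted p = 0.261). SR splicing factors (18 tested) divided evenly in sign, with 4 positive and 3 negative at an unadjusted p under 0.05. Among them were Tra2b at -0.27 ± 0.054 (adjusted p = 0.114) and Srsf5 at 0.31 ± 0.11 (adjusted p = 0.249). The 41 hnRNPs and neuronal splicing regulators had a median of 0.015, with 2 positive and 3 negative at an unadjusted p under 0.05, and the 17 genes of the Sm core and SMN complex one of -0.078, with 3 negative. Over the alternatives these medians ran from -0.020 to 0.055 and from -0.18 to -0.050.

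Markers of the other cell types gave no called member. At an unadjusted p under 0.05, 5.44% of all genes were positive and 8.88% negative. Dentate granule neuron markers (18 tested) had a median difference of -0.17, with 5 negative and none positive at an unadjusted p under 0.05, and pyramidal neuron markers (20 tested) one of -0.025, with 2 negative and 1 positive. Erythroid genes (6 of 7 tested) had a median of -0.66 with none at an unadjusted p under 0.05, and their sums ran from 505 to 648 FPKM in 3-month wild type, 506 to 757 in 3-month N40K, 452 to 577 in 12-month wild type and 382 to 425 in 12-month N40K. Choroid plexus and meningeal markers had medians of -0.15 and 0.21, also with none at an unadjusted p under 0.05. Both changed sign over the alternatives, from -1.47 to 0.49 for choroid plexus and from -0.37 to 0.34 for meningeal markers, so no direction can be given. Over the alternatives the dentate median ran from -0.28 to -0.096, the pyramidal one from -0.12 to 0.012 and the erythroid one from -0.89 to -0.26. Of the 47 lists, which were taken with earlier results of these data known, 44 had no called member and 3 had 1 each. Each of the 5 further lists, chosen after the values of the difference were seen, was built around a called gene.

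Several further genes had the next smallest p-values. Icam5, a dendritic adhesion gene of the forebrain that overlaps Gm26592, measured 101, 98.7 and 102 FPKM in 3-month wild type, 118, 120.1 and 126 in 3-month N40K, 78.3, 81.4 and 80.0 in 12-month wild type and 77.6, 76.4 and 73.9 in 12-month N40K, with a difference of -0.34 ± 0.054 (adjusted p = 0.0586). N40K libraries were higher at 3 months and lower at 12 months. The Icam5 difference was -0.21 with the GC trend removed (adjusted p = 0.206). Nptx1, a secreted pentraxin that gathers glutamate receptors, had effects of 0.11 ± 0.042 and -0.26 ± 0.042 and a difference of -0.36 ± 0.059 (adjusted p = 0.0648). Tsc22d3, a target of glucocorticoid hormones, had a difference of -0.51 ± 0.082 (adjusted p = 0.0648) and Id4, an inhibitor of helix-loop-helix factors that overlaps Gm49291, of -0.45 ± 0.077 (adjusted p = 0.0869). On the positive side Ftx, a noncoding RNA next to Xist, had a difference of 0.73 ± 0.13 (adjusted p = 0.0895), and Shc3, an adaptor of neurotrophin signalling, of 0.56 ± 0.11 (adjusted p = 0.112). Of all genes 42 had a difference larger than 1 in size and none of these was called.

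The 9 genes kept their sign when the libraries high in Xist were handled apart. With Xist as a covariate the difference was 0.86 for Gbp3 (adjusted p = 0.0741), 0.81 for LOC547349 (0.0692), 0.70 for H2-D1;H2-L (0.0778), 0.67 for Mir23b (0.0705) and 0.54 for Tfrc (0.0741). It was -0.40 for Klhl26 (0.0778), -0.52 for Ramp2 (0.0692), -0.59 for Jun (0.0837) and -0.87 for 9530052E02Rik (0.0692). The low-Xist libraries, without the 3 libraries high in Xist, held 1 library of 3-month wild type, whose spread was taken from the other groups. In them the differences were 1.00, 0.69, 0.62, 0.60 and 0.56 for the 5 positive genes in the same order. They were -0.39, -0.51, -0.64 and -0.81 for the 4 negative genes. None of the 9 was called there, with adjusted p-values from 0.477 to 0.622. With Ttr as a covariate 12 genes were called, 8 of the 9 among them, and Klhl26 had an adjusted p of 0.0519.

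**Figure D5:**
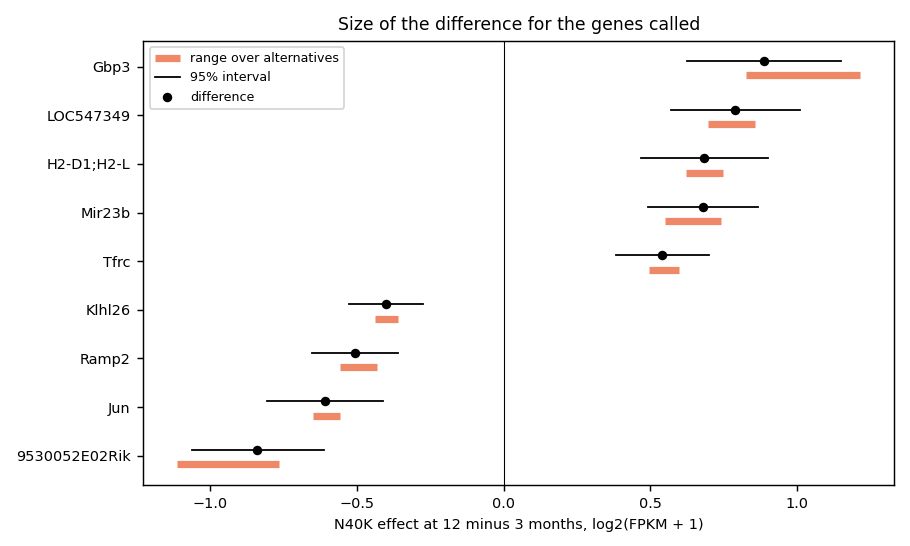
Size of the difference for the 9 called genes on the log2(FPKM + 1) scale, with the point at the fitted value, the black line its 95% interval and the orange bar the range over the alternatives. No interval and no range reaches 0, which for the intervals follows from the call itself. The intervals are widest for Gbp3 (0.63 to 1.15) and 9530052E02Rik (-1.06 to -0.61).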

How the data were processed

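Poly-A RNA of mouse hippocampus was sequenced as paired 100-base reads (TruSeq, HiSeq), per the labels' protocols. CASAVA, STAR, BWA and mm9 are listed, with no version, in the submitters' processing notes. What each did, how reads were counted, on which annotation and with which strand setting is not given in the sources used here. The authors deposited 1 FPKM value for each of 23352 gene entries and 12 libraries, 128 of them joined names. Unequal library composition and overlapping genes can shift FPKM. Depth, estimated from the steps of low values over 1189 receptor genes, ran from 39.9 to 97.1 M reads. In these genes 55.2% to 74.3% of values were whole reads within 0.02 read, too few for a count test.

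Entries with at least 1 FPKM in 3 libraries (13945) were analysed as log2(FPKM + 1) with limma 3.58.1 in R 4.3.3: 4 group means, a mean-variance trend, two-sided tests of the contrast between ages, Benjamini-Hochberg adjustment and a threshold of 0.05. SE is the model's standard error. The fit was tested on simulated data. No library pair shared more than 0.0159% of identical values over 12596 genes. Alternatives changed the pseudocount, filter, scaling, covariates, model and left-out library. The threshold of 0.10 was added after the data were seen. Gene overlaps come from GENCODE M21, which matched 22884 entries (98.0%), and sequences and motif positions from RefSeq GRCm38.p6. No coordinate of the deposited table was used.

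The genes and lists were chosen with earlier results of these data known. Named are Snrnp70, Hnrnpu, the called genes, the 10 smallest p in each direction without small RNA, joined and sex-chromosome entries (since under 10 genes were called), the 12 smallest p with opposite signs, called list members and the small RNA loci with the smallest p. Ftx, named by its p, is X-linked. Other list members, host or partner genes and Jph4 were chosen after their values were seen, by their p within a list or to go with a sequence.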

Additional observations from a re-analysis of the deposited data

Results flagged for a closer look

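Each of the 9 genes called was marked because its genotype effect differed between the ages by the limma test of that difference, at a Benjamini-Hochberg adjusted p under 0.05. The positive differences were 0.888 for Gbp3, 0.788 for LOC547349, 0.684 for H2-D1;H2-L, 0.678 for Mir23b and 0.539 for Tfrc. The negative ones were -0.838 for 9530052E02Rik, -0.608 for Jun, -0.505 for Ramp2 and -0.40 for Klhl26. In 7 of the 9 the genotypes did not overlap at either age, and their order turned between the ages. Tfrc overlapped at 3 months and 9530052E02Rik at 12 months. Among all genes 0.43% lay wholly lower in N40K at 3 months and wholly higher at 12 months, and 0.861% the reverse. The 9 were picked by the difference in these same libraries, so their separation is no separate support.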

How the results depend on the processing

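The count of 9 genes lay between 8 and 12 under other pseudocounts, filters, scalings and the Ttr covariate. It was 0 with Xist as a covariate, 50 with array weights, 2 with the GC trend removed and 34 at a threshold of 0.10. Leaving out 1 library gave 0 to 162. The fit with a replicate block called 0 genes (limma, 1924 at an unadjusted p under 0.05). Same-numbered libraries of 3-month wild type and of either 12-month group deviated together (r from 0.246 to 0.723), but those of 3-month N40K did not with any other group (-0.456 to 0.0569), nor all pairs of the 12-month genotypes (0.00108 to 0.197). Not every library correlated best with its own number, so the numbers were not taken to pair all 4 groups. The median difference of the interferon list was 0.71 with a pseudocount of 0.1 and 0.35 at a mean of at least 5 FPKM. The ER chaperone median was -0.205 at that mean filter and -0.215 in the low-Xist libraries. There heat shock chaperones had -0.218, immediate early genes -0.39 and histones -0.55. Histones had -0.11 with no filter. After quantile normalization and with the length trend removed, ribosomal proteins had -0.092 and -0.11, and oxidative phosphorylation -0.061 and -0.073. With 1 library left out, medians ran from 0.36 to 0.56 for interferon, 0.24 to 0.36 for MHC class I, 0.15 to 0.33 for vessel markers, -0.37 to -0.21 for immediate early genes, -0.19 to -0.13 for heat shock, -0.18 to -0.096 for ER chaperones, -0.46 to -0.24 for histones, -0.23 to -0.12 for ribosomal proteins and -0.18 to -0.077 for oxidative phosphorylation. Over 81 genes given with a difference, 1981 of the values under alternatives kept their direction and side of the threshold. Of the others, 118 no longer passed it and 59 newly passed it. Only the 9 called genes could stop passing, so all 118 are theirs. Each of the 9 stayed called in only 10 to 16 of its 25 to 27 alternatives. Another 6 values changed sign. These were Calcrl at -0.011 in the low-Xist libraries, Ramp3 in 4 fits with 1 library left out (lowest -0.071, highest 0.18), and Snrnp70. The Snrnp70 value ran from -0.071 (without replicate 2 of 12-month wild type) to 0.19 with 1 library left out. In 57 of the 81 genes no alternative moved the value by over 1.5 times. A pseudocount of 0.1 gave 1.65 for Oasl2, 1.92 for Irf7, 0.85 for Herc6, 1.15 for Gbp9, 0.71 for Gbp7, 1.25 for Ftx and -1.48 for Egr2. The H2-D1 entry had 0.14 without replicate 1 of 3-month N40K and Snrpa -0.12 with the length trend removed. The causes of these shifts were not tested. Low genes are limited by depth, since 1 FPKM is also the size of the pseudocount.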

Other observations

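Some groups not described above had members with small p but no call in the limma fit. Among all genes 5.44% were positive and 8.88% negative at an unadjusted p under 0.05. Of 17 tested glucocorticoid-responsive genes 5 were negative and none positive at an unadjusted p under 0.05, with a median difference of -0.13 (from -0.22 to -0.085 over the alternatives). Tsc22d3, which led them, measured 24.6, 23.7 and 23.7 FPKM in 3-month wild type, 26.1, 27.2 and 26.9 in 3-month N40K, 19.5, 23.1 and 20.2 in 12-month wild type and 16.8, 16.1 and 15.4 in 12-month N40K. N40K lay above wild type at 3 months and below it at 12 months. Ddit4, an inhibitor of the growth kinase mTOR, had a difference of -0.52 ± 0.17 (adjusted p = 0.215). The circadian clock list (22 tested) had a positive median of 0.045, 14 members with a positive sign and 3, all negative, at an unadjusted p under 0.05. Of these 3 the transcription factor genes Tef and Nfil3 had differences of -0.26 ± 0.054 and -0.51 ± 0.12 (adjusted p = 0.119 and 0.141). Tef was above wild type in every 3-month N40K library and below it in every 12-month one.

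Olig2, a transcription factor of the oligodendrocyte lineage, measured 7.75, 7.70 and 7.83 FPKM in 3-month wild type, 7.12, 7.33 and 8.61 in 3-month N40K, 10.97, 9.05 and 8.34 in 12-month wild type and 5.65, 6.08 and 5.98 in 12-month N40K. At 12 months N40K lay below wild type without overlap, and at 3 months the genotypes overlapped, with a difference of -0.57 ± 0.12 (adjusted p = 0.129). The other lineage factor Olig1 had a difference of -0.39 ± 0.12 (adjusted p = 0.199), while the median of the 27 oligodendrocyte markers was -0.019 and ran from -0.10 to 0.074 over the alternatives. Collagen genes (29 of 44 tested) had 4 positive and none negative at an unadjusted p under 0.05, against 5.44% and 8.88% of all genes. Their median difference was 0.26. That median was 0.16 with no filter and 0.041 in the low-Xist libraries. It was 0.10 without replicate 3 of 3-month wild type, which had the highest level of the list, 0.11 without replicate 3 of 3-month N40K, 0.11 without replicate 2 of 12-month wild type and 0.11 without replicate 3 of 12-month N40K. Col4a1, a collagen of vessel basement membranes, had a difference of 0.42 ± 0.14 (adjusted p = 0.220).

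Pcsk1n, an inhibitor of prohormone convertase, measured 78.5, 62.0 and 58.4 FPKM in 3-month wild type, 69.6, 163 and 166 in 3-month N40K, 87.4, 89.8 and 72.5 in 12-month wild type and 62.5, 68.8 and 68.4 in 12-month N40K. Replicates 2 and 3 of 3-month N40K stood far above the other 10 libraries. The difference of -1.21 ± 0.37 missed the threshold (adjusted p = 0.203) and was -0.75 in the low-Xist libraries. The same 2 libraries stood above replicate 1 in Cox8a and Egr4, and whether this has 1 source was not tested.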
